A study of Mus musculus with 4 samples.

Results

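The cell cycle and DNA replication genes examined here were 41 genes chosen by name: 24 that act in or peak around the G2 phase and mitosis (G2/M) and 17 that act at the G1/S transition or in S phase. Of these, 39 were matched by gene symbol among the 55203 genes listed in every library, all 24 G2/M genes and 15 of the 17 G1/S and S genes. Gins2 and Cdt1 were not analysed here. Levels of each gene were the sum over its transcripts, and the 39 genes had 204 transcripts. Phases were assigned from general knowledge of these genes.

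The libraries came from wild-type C57BL/6NTac male mice, 8 to 12 weeks old, kept under specific-pathogen-free (SPF) conditions. In 2 libraries the label gives 4 mM RVC, which is ribonucleoside vanadyl complex and blocks ribonucleases, and in the other 2 it gives fresh frozen tissue. The protocol text for all 4 libraries describes a rinse in RVC, so what set the fresh-frozen tissue apart is known from its label alone. No label ties a library to an animal, so p-values measure the spread between libraries, which may be technical, and each library had a batch number of its own, so a batch effect and a group effect cannot be told apart. The tissue label reads ileum and the protocol distal colon. Of the marker genes of both, the colon gene Car1 stood at 1587 to 1787 scaled FPKM (fragments normalised for transcript length and library size, after scaling of the libraries to one another), whereas 5 of 10 ileum marker genes, among them Fgf15, were listed at 0 in every library and 4 passed the minimum for testing: Apob at 16.7 to 30.2 and Fabp6, Slc10a2 and Lyz1 at 2.22 to 3.91.

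In a proliferating cell, E2F transcription factors switch on genes for origin licensing, the replicative helicase and nucleotide synthesis as the cell leaves G1. A later wave, driven through the MuvB complex with B-Myb and FoxM1, provides the cyclins, kinases, kinesins and kinetochore proteins of mitosis. In the intestine both waves run mainly in the transit-amplifying cells of the crypts, while the cells of the upper crypt and surface epithelium have left the cycle. In bulk tissue, fewer cells of a type and less RNA per cell cannot be told apart.

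Promoters of both waves are known for different short elements, and 4 are shown, from genes with the smallest p-values of their phase among those whose groups did not overlap. Of the other 3 such genes, Ccna2 and Mcm7 had no match in this window and Rrm1 had CCAAT matches only. Each run covers 250 bases before to 50 bases after the start of the Ensembl canonical transcript (GENCODE vM39, GRCm39), written in the direction of transcription. Capitals mark matches, on either strand, to the cell cycle homology region (CHR, TTTGAA or TTTAAA), to the NF-Y box (CCAAT) and to the E2F site (TTTCCCGC, TTTGGCGC, TTTCGCGC or TTTGCCGC). No motif searched contains another. The starts of 13 of the 39 canonical transcripts were identical in the deposited tables. For the others the start differed or the transcript was not listed. The Cenpf window lies at chr1:189420263-189420562 on the minus strand, that of Kif23 at chr9:61854024-61854323 (minus), that of Cenpe at chr3:134918048-134918347 (plus) and that of Mcm4 at chr16:15455215-15455514 (minus).
Cenpf: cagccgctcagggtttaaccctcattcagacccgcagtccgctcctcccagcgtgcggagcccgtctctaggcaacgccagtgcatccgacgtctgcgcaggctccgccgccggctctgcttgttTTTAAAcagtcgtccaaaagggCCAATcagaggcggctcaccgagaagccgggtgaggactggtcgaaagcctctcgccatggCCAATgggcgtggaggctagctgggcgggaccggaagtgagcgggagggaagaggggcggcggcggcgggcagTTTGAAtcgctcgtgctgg
Kif23: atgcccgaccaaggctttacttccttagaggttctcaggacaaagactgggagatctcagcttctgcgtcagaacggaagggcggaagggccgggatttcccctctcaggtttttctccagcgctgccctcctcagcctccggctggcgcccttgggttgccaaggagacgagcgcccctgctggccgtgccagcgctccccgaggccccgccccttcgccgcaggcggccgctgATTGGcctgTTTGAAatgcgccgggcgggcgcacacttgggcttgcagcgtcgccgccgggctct
Cenpe: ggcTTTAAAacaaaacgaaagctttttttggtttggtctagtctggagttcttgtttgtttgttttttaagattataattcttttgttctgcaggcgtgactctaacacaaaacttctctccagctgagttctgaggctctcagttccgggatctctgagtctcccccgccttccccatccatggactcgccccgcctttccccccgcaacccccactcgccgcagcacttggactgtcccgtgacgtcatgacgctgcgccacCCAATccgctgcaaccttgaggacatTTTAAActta
Mcm4: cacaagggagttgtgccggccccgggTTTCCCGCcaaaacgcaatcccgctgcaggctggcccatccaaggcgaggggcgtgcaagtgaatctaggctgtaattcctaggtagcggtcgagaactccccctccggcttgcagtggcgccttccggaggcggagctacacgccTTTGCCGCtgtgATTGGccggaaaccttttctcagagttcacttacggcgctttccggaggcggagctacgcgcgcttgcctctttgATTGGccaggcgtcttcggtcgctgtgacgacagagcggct

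In Kif23 the CHR match began 6 bases before the start (position -6) and the CCAAT match at -15. Cenpf carried CCAAT matches at -103 and -42 and CHR matches at -125 and 32, the last downstream of the start. The Mcm4 promoter had no CHR match, but E2F matches at -224 and -78 and CCAAT matches at -66 and 10. Among the 24 G2/M genes, 17 (70.8%) had a CHR match, against 4 of 15 (26.7%) G1/S and S genes and 23.0% of the promoters of 11503 tested protein-coding genes. A CHR and a CCAAT match occurred together in 14 G2/M genes (58.3%), 3 G1/S and S genes (20.0%) and 9.47% of all promoters. An E2F match was found in 6 of 15 G1/S and S genes, Mcm3, Mcm4, Mcm5, Mcm6, Cdc6 and E2f1, and in 1 G2/M gene, Cdk1, against 3.81% of all promoters. These matches describe the letters of the windows and were not tied to binding in these samples.

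The 2 phases gave different values. All 22 tested G2/M genes had a lower mean in RVC than in fresh-frozen libraries, where 49.0% of all tested genes did, with a median log2 difference of -0.46 (middle 50% of genes -0.60 to -0.38). Bub1b and Plk1 were no longer lower without fresh frozen 2, nor Bub1b without RVC 2. The 12 tested G1/S and S genes were divided 6 lower to 6 higher around a median of 0.035 (-0.18 to 0.15). The median of all 13771 tested genes was 0.0066 (-0.17 to 0.18). Differences are on the scale of log2(scaled FPKM + 1), RVC minus fresh frozen, which understates the change of genes near 1 FPKM. A gene was tested if its mean over the 4 libraries reached 1 scaled FPKM. That left out Cdc6, Cdc45, E2f1, Bub1 and Foxm1. Cenpe and Aurka passed through the fresh-frozen libraries only, since their RVC means were below 1, so these 2 had to be lower. The other 20 G2/M genes were all lower, with a median of -0.46.

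No single member passed the threshold. In limma's moderated test with Benjamini-Hochberg adjustment over all tested genes, 0 of 34 members had an adjusted p under 0.05, where 0.0363% of all genes (5) did, and the smallest value, that of Ccna2, was 0.127. At an unadjusted p under 0.05, 17 of 22 G2/M genes were lower in RVC and 0 higher, against 8.99% of all genes lower and 9.38% higher. Without Cenpe and Aurka, which had to be lower, 16 of 20 were. For G1/S and S genes this count was 0 of 12 in both directions. Values of the groups did not overlap, with RVC lower, for 19 of 22 G2/M genes (86.4%) and 3 of 12 G1/S and S genes, against 26.6% of all genes. Cenpe and Aurka are among the 19. With RVC higher, the groups were apart for 0 of 34 members, against 26.5% of all genes. The smallest two-sided exact permutation p for 2 libraries against 2 is 0.333, and no p was computed for the lists.

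**Figure D1:**
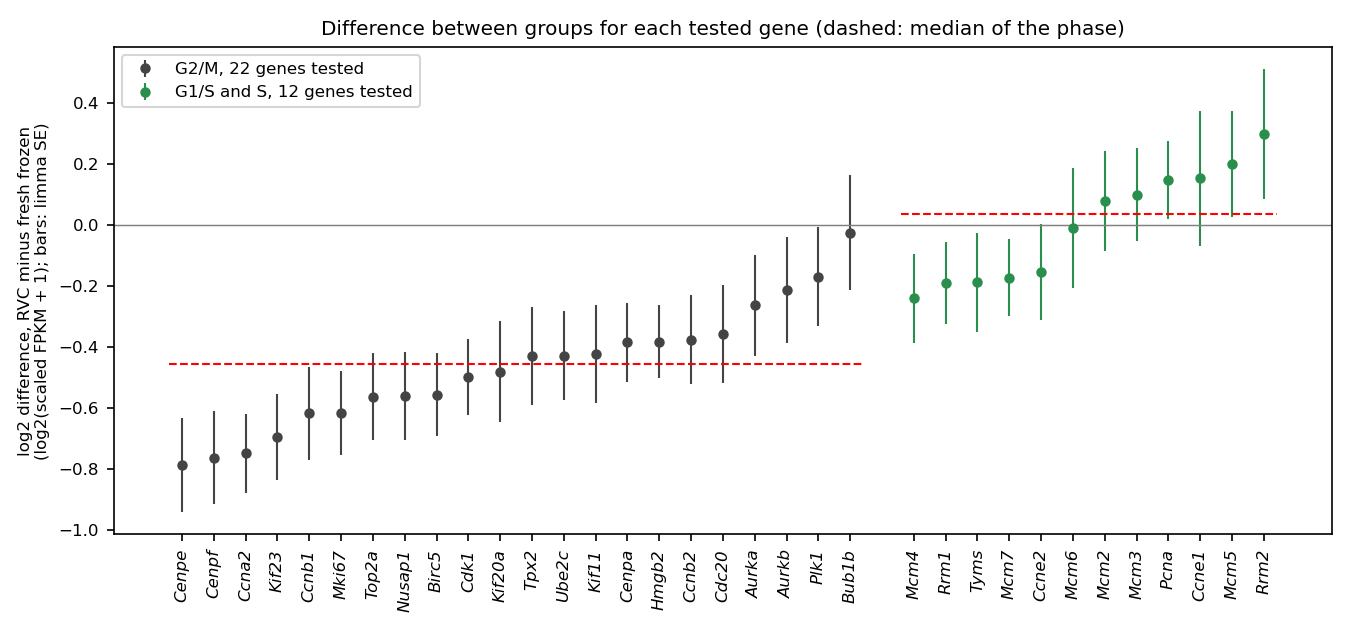
Log2 difference between RVC and fresh-frozen libraries (y axis, log2(scaled FPKM + 1), bars are limma standard errors) for each tested gene, sorted within its phase. All 22 G2/M genes lie below 0 around a median of -0.46 (dashed), while the 12 G1/S and S genes lie on both sides of 0.

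The 4 G2/M genes with the smallest p-values were Ccna2, Cenpe, Cenpf and Kif23. Cenpe (ENSMUSG00000045328, chromosome 3, 134918298 to 134979372, GRCm39), the kinesin motor that carries chromosomes at the kinetochore, measured 0.838 and 0.891 scaled FPKM with RVC, against 2.02 and 2.43 fresh frozen. Both RVC values lay far below both fresh-frozen values, and the means were 2.57-fold apart (log2 difference -0.79, SE 0.15, limma adjusted p 0.129). Cenpf (ENSMUSG00000026605, chromosome 1, 189372803 to 189420283), a large protein of the outer kinetochore, measured 1.28 and 1.17 in RVC and 2.50 and 3.06 in fresh frozen. This was a 2.27-fold gap without overlap (log2 difference -0.76, SE 0.15, limma adjusted p 0.129).

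Ccna2 (ENSMUSG00000027715, chromosome 3, 36619014 to 36626299) encodes cyclin A2, the partner of Cdk2 and Cdk1 from S phase to early mitosis. It stood at 3.11 and 3.08 scaled FPKM with RVC, against 5.57 and 6.20 fresh frozen, 3.10 ± 0.017 against 5.89 ± 0.44 (SD, n = 2 each). The log2 difference of -0.75 (SE 0.13) had the smallest limma adjusted p of any member, 0.127. The RVC libraries were nearly identical, and the fresh-frozen libraries stood 1.90-fold higher. Kif23 (ENSMUSG00000032254, chromosome 9, 61823187 to 61854056), the kinesin of the centralspindlin complex in cytokinesis, measured 2.15 and 2.45 in RVC and 4.59 and 4.08 in fresh frozen. The groups were again apart, by 1.89-fold (log2 difference -0.69, SE 0.14, limma adjusted p 0.129).

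The most abundant G2/M genes, among them the proliferation marker Mki67, were also lower in RVC, by smaller folds. Mki67 (ENSMUSG00000031004, chromosome 7, 135291513 to 135318090), which encodes the Ki-67 antigen that coats mitotic chromosomes, measured 5.36 and 6.49 scaled FPKM with RVC, against 9.0 and 10.2 in fresh frozen. Both fresh-frozen libraries exceeded both RVC libraries, with means 1.62-fold apart (log2 difference -0.62, SE 0.14, limma adjusted p 0.131). Top2a, the topoisomerase that untangles sister chromatids, measured 5.67 and 6.32 in RVC and 8.33 and 10.4 in fresh frozen, 1.56-fold apart without overlap. Cdk1, the mitotic kinase, measured 5.71 and 5.14 in RVC and 8.30 and 7.84 in fresh frozen, 1.49-fold apart without overlap. Hmgb2, a chromatin protein and the most abundant G2/M gene, measured 15.2 and 14.7 in RVC and 18.4 and 21.4 in fresh frozen. Its groups stood 1.33-fold apart, among the smaller gaps of the phase.

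The remaining G2/M genes can be read by role. Cyclin B genes, whose products start mitosis with Cdk1, measured 1.83-fold (Ccnb1) and 1.41-fold (Ccnb2) higher in fresh frozen. Birc5 (survivin), a subunit of the chromosomal passenger complex, measured 1.62-fold higher, whereas Aurkb, the kinase of that complex, overlapped between groups (0.902 and 1.22 in RVC, 1.18 and 1.61 in fresh frozen). Spindle genes were Nusap1 (1.76-fold higher in fresh frozen), Kif20a (1.80-fold), Tpx2 (1.65-fold) and Kif11 (1.53-fold), none of them with overlap. Cenpa, the centromeric histone variant, was 1.42-fold higher in fresh frozen, as was the ubiquitin-conjugating enzyme gene Ube2c at 1.42-fold, and its partner in the anaphase-promoting pathway, Cdc20, was 1.43-fold higher.

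The mitotic kinases Aurka, Plk1 and Bub1b had the smallest log2 differences of the phase beside Aurkb. Aurka measured 0.950 and 1.03 in RVC and 1.18 and 1.62 in fresh frozen, 1.41-fold apart without overlap. Plk1 measured 3.05 and 2.89 in RVC and 2.95 and 4.04 in fresh frozen, so the groups overlapped, and only fresh frozen 2 stood higher. Bub1b, the checkpoint kinase BubR1, overlapped fully, at 2.17 and 1.95 in RVC and 1.64 and 2.67 in fresh frozen, with a log2 difference of -0.026 (SE 0.19). Of the G2/M genes too low to test, the checkpoint kinase gene Bub1 measured 0.514 and 0.512 in RVC and 1.13 and 1.03 in fresh frozen, without overlap. Foxm1, the transcription factor of the G2/M wave, measured 0.634 and 0.659 in RVC and 0.569 and 1.55 in fresh frozen, so its higher mean rested on fresh frozen 2.

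**Figure D2:**
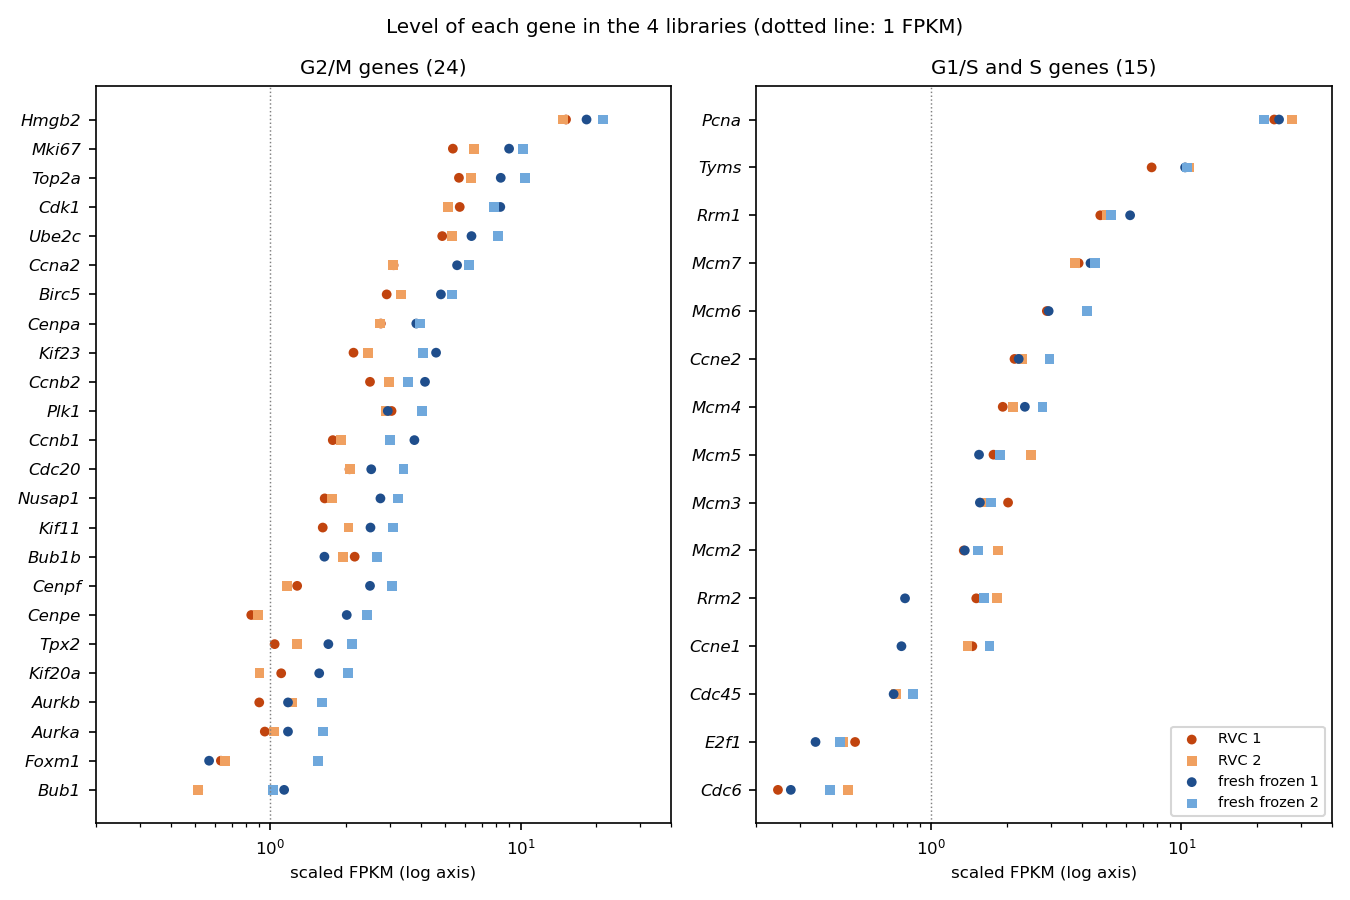
Scaled FPKM (x axis, log scale) of all 39 genes in each of the 4 libraries, ordered by mean within a phase. For most G2/M genes the RVC points (orange) lie left of the fresh-frozen points (blue), whereas the colours mix for the G1/S and S genes, with Pcna the most abundant.

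Genes of DNA replication gave no such separation. Pcna (ENSMUSG00000027342, chromosome 2, 132091082 to 132095234), the sliding clamp of the replicative polymerases and the most abundant member, measured 23.5 and 27.7 scaled FPKM with RVC, against 24.6 and 21.4 in fresh frozen. Its groups overlapped, at 25.6 ± 2.97 and 22.98 ± 2.24 (SD, n = 2 each), with a log2 difference of 0.15 (SE 0.13, limma adjusted p 0.551). Tyms, which makes thymidylate, measured 7.60 and 10.7 in RVC and 10.3 and 10.5 in fresh frozen. RVC 1 alone stood low, and its shortfall lay in one 618-nt transcript annotated as a target of nonsense-mediated decay, ENSMUST00000146520, at 1.45 scaled FPKM in RVC 1 and 4.48 to 5.32 elsewhere.

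The MCM helicase subunits, which are loaded at origins as a hexamer, lay within 1 to 5 scaled FPKM. Mcm6 overlapped completely, at 2.90 and 4.18 in RVC and 2.95 and 4.18 in fresh frozen, so that sample number 2 was high in both groups. Mcm2, Mcm3 and Mcm5 also overlapped, with log2 differences of 0.079, 0.10 and 0.20. Mcm4 measured 1.93 and 2.12 in RVC and 2.37 and 2.78 in fresh frozen, and Mcm7 measured 3.88 and 3.75 against 4.33 and 4.53. These 2 subunits did not overlap and were lower in RVC, by a log2 difference of -0.24 (SE 0.15) for Mcm4 and -0.17 (SE 0.13) for Mcm7, at limma adjusted p-values of 0.399 and 0.480.

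Rrm1 and Rrm2, the subunits of ribonucleotide reductase, went to opposite sides. Rrm1 measured 4.74 and 5.03 in RVC and 6.24 and 5.22 in fresh frozen, without overlap (log2 difference -0.19, SE 0.14). Rrm2 measured 1.51 and 1.83 in RVC and 0.785 and 1.63 in fresh frozen, with the single low value in fresh frozen 1 (log2 difference 0.30, SE 0.21). Cyclin E genes, which drive entry into S phase, overlapped: Ccne1 measured 1.46 and 1.40 in RVC and 0.760 and 1.71 in fresh frozen, and Ccne2 measured 2.15 and 2.30 against 2.24 and 2.97. Those under the minimum for testing were Cdc45, a part of the active helicase, at 0.707 to 0.847, the licensing factor Cdc6 at 0.244 to 0.465, and E2f1. E2f1 measured 0.496 and 0.446 in RVC and 0.345 and 0.431 in fresh frozen.

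The contrast of phases was then taken library by library, as the median of log2(scaled FPKM + 1) over the 12 G1/S and S genes less that over the 22 G2/M genes. It was -0.033 in RVC 1 and 0.060 in RVC 2, and -0.39 in fresh frozen 1 and -0.21 in fresh frozen 2. Group means were 0.014 ± 0.066 and -0.30 ± 0.13 (SD, n = 2 each), 0.31 apart, and the groups did not overlap. The 22 G2/M genes include Cenpe and Aurka, which passed the minimum for testing through the fresh-frozen libraries only. With each gene first centred on its own mean over the libraries, the same contrast was 0.20 and 0.29 in RVC and -0.24 and -0.21 in fresh frozen. The G2/M median alone was 1.66 and 1.71 in RVC and 2.12 and 2.16 in fresh frozen, with an SD of 0.032 and 0.033 within groups. In the G1/S and S median, by comparison, the second library of each group was the higher, at 1.63 and 1.77 in RVC and 1.72 and 1.95 in fresh frozen.

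**Figure D3:**
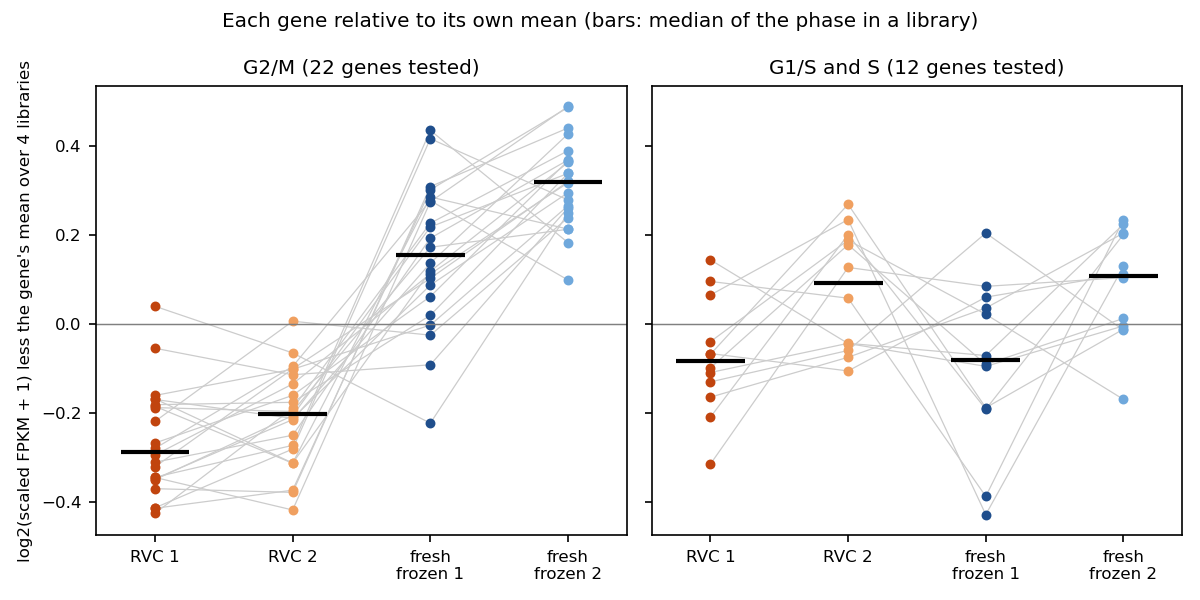
Log2(scaled FPKM + 1) of each tested gene less its own mean over the 4 libraries (y axis), by library, with the median of the phase as a black bar and grey lines joining the values of a gene. G2/M medians step from -0.29 and -0.20 in the RVC libraries to 0.15 and 0.32 in the fresh-frozen libraries, and G1/S and S medians stay between -0.084 and 0.11.

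Set against each fresh-frozen library in turn, each RVC library had the lower G2/M median, from -0.37 (RVC 2 with fresh frozen 1) to -0.57 (RVC 1 with fresh frozen 2), with 20 to 22 of the 22 genes lower. These pairings share libraries, and the 22 genes include Cenpe and Aurka, whose RVC means had to be lower. Between the RVC libraries the G2/M median differed by -0.060 and between the fresh-frozen libraries by -0.21 (the first library less the second). For G1/S and S genes the 4 pairings ran from -0.13 to 0.11, and the libraries of one group differed as much, by -0.13 in RVC and -0.14 in fresh frozen. Ratios of a G2/M gene to an S-phase gene of the same library were read too: Mki67 over Pcna was 0.228 and 0.234 in RVC and 0.366 and 0.476 in fresh frozen. The ratio of Ccna2 to Ccne2 was 1.44 and 1.34 in RVC and 2.49 and 2.09 in fresh frozen.

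Further genes of the pathway were read from lists of other replication and other mitosis genes, of which 24 and 39 were tested. Other mitosis genes were lower in RVC for 34 of 39, with a median log2 difference of -0.29, against 49.0% of all tested genes, and 11 had an unadjusted p under 0.05 on the lower side and 0 on the higher, against 8.99% and 9.38%. Of the 39, Kif15, Ndc80, Nuf2, Sgo2a, Ncapg, Ckap2l and Fbxo5 reached the minimum for testing in the fresh-frozen mean only, so these 7 had to be lower, and 1 of them, Ncapg, is among the 11. Ckap2, a spindle protein gene, measured 1.13 and 1.15 scaled FPKM with RVC, against 2.38 and 2.56 in fresh frozen. Dlgap5, which bundles spindle microtubules, measured 1.61 and 1.34 against 2.50 and 3.17, and Ect2, which positions the cleavage furrow, 1.91 and 1.72 against 2.71 and 3.23. The groups did not overlap for these 3 genes, and their limma adjusted p-values were 0.129, 0.145 and 0.176. H2az1 and Pttg1, the most abundant of the list, had log2 differences of -0.16 and 0.090.

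Other replication and repair genes were divided 12 lower to 12 higher, with a median of -0.0024, and 1 gene in each direction had an unadjusted p under 0.05. These were Slbp, the histone mRNA binding protein gene, at 11.8 and 10.8 scaled FPKM with RVC, against 14.3 and 13.6 in fresh frozen, and Pold1, the catalytic subunit of polymerase delta, at 1.72 and 2.02 against 0.558 and 1.04. Pold1 was the higher in RVC, with a log2 difference of 0.68 (SE 0.185, limma adjusted p 0.156), but it reached the minimum for testing through its RVC mean only. Gmnn, the licensing inhibitor geminin and the most abundant of this list, measured 12.7 to 13.3 in all 4 libraries. None of the genes of either list had an adjusted p under 0.05.

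G1 cyclins, kinases, pocket proteins and E2F partners had a median of 0.022 over 23 tested genes, with 10 lower and 13 higher. The D-type cyclins, which link growth signals to the cell cycle, differed from one another. Ccnd2 measured 17.2 and 20.3 scaled FPKM with RVC, against 30.3 and 30.2 in fresh frozen (log2 difference -0.66, SE 0.12, limma adjusted p 0.129). Ccnd3 measured 15.6 and 14.2 in RVC and 10.8 and 9.81 in fresh frozen (log2 difference 0.49, SE 0.12, limma adjusted p 0.137), and Ccnd1 overlapped (log2 difference 0.022). Lin9, a subunit of the MuvB complex that binds G2/M promoters, measured 1.58 and 1.59 in RVC and 2.85 and 2.47 in fresh frozen (limma adjusted p 0.166). The MuvB subunit gene Rbbp4, the most abundant of the list, measured 24.5 and 28.5 in RVC and 32.7 and 31.2 in fresh frozen. Its groups did not overlap (log2 difference -0.27, SE 0.12, limma adjusted p 0.282). The MuvB subunit genes Lin37 and Lin52 overlapped, with log2 differences of -0.051 and 0.071, and Lin54 was not analysed here. Mybl2, which encodes B-Myb, was too low to test, at 0.779 and 0.606 in RVC and 0.294 and 0.557 in fresh frozen. Inhibitors of cyclin-dependent kinases and antiproliferative genes had a median of 0.18, with 8 of 12 higher in RVC. The smallest p of this list was that of Ccng1, cyclin G1, which was lower in RVC, at 22.7 and 21.7 against 31.2 and 28.2 without overlap (log2 difference -0.40, limma adjusted p 0.157). Cdkn1a (p21), the most abundant of them, measured 158 and 131 in RVC and 125 and 110 in fresh frozen, without overlap (limma adjusted p 0.295), and Cdkn2b (p15) 37.9 and 35.6 against 26.9 and 29.3.

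**Figure D4:**
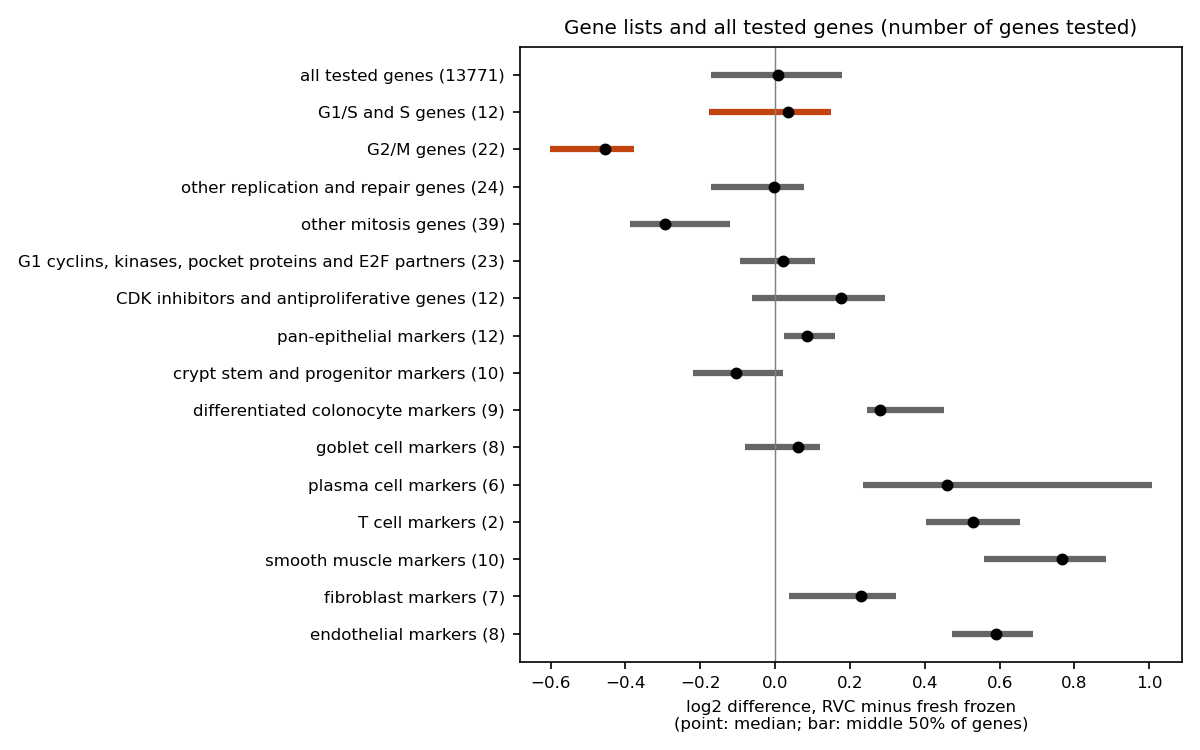
Median log2 difference, RVC minus fresh frozen (x axis, points, with bars over the middle 50% of genes), for each gene list and for all tested genes, with the number tested in brackets. The G2/M genes (-0.46) and the other mitosis genes (-0.29) lie left of 0, the replication lists lie at it, and smooth muscle (0.77) and endothelial (0.59) markers lie right of it.

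Markers of some cell types in the tissue moved with the groups as well. Of all 13771 tested genes, 7023 were higher in RVC. Smooth muscle markers were higher in RVC for 10 of 10 genes, with a median of 0.77 and a summed level of 1196 and 1753 scaled FPKM with RVC against 737 and 804 in fresh frozen. Endothelial markers were higher for 8 of 8 genes (summed 27.0 and 25.7 against 12.9 and 16.6), plasma cell markers for 6 of 6 tested (1040 and 929 against 416 and 621), and markers of differentiated colonocytes for 9 of 9 tested (6737 and 5672 against 5144 and 4377). Tek and Eng of the endothelial list reached the minimum through RVC only. Goblet cell markers (median 0.061, summed 17421 and 13807 in RVC, 14033 and 16142 in fresh frozen) and fibroblast markers (0.23, summed 219 and 259 in RVC, 217 and 219 in fresh frozen) did not separate as lists. Their counts at an unadjusted limma p under 0.05 were 1 of 8 and 0 of 7, against 18.4% of all tested genes in either direction. Pan-epithelial markers had a median of 0.085 with 9 of 12 higher, and their sums overlapped, at 5038 and 4870 in RVC and 5177 and 4105 in fresh frozen. Scaling the libraries on these epithelial markers in place of all genes moved the median of all tested genes to -0.11, that of G2/M genes to -0.55 and that of G1/S and S genes to -0.059.

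Crypt stem and progenitor markers, which mark the compartment that feeds the dividing cells, had a median of -0.11 with 6 of 10 tested lower, and their sums overlapped (128 and 134 in RVC, 126 and 134 in fresh frozen). This overlap rests on Prom1, the most abundant of them, at 80.6 and 86.3 in RVC and 70.8 and 72.1 in fresh frozen. Without Prom1, a sum taken after the values were seen, the remainder was 47.1 and 48.0 in RVC and 55.7 and 62.3 in fresh frozen. This remainder was lower in RVC without overlap, and much of its gap lay in Myb. Myb, a transcription factor of crypt progenitors, measured 10.3 and 11.2 scaled FPKM with RVC, against 18.1 and 20.4 in fresh frozen (log2 difference -0.78, SE 0.12, limma adjusted p 0.112). Sox9, Ephb2 and Znrf3 were also lower in RVC without overlap, with log2 differences of -0.15, -0.20 and -0.23. With Myb, this held for 4 of 10 tested genes, against 26.6% of all tested genes. Prom1 alone was higher without overlap. Axin2, Ephb3 and Rnf43 overlapped, with log2 differences of 0.022, 0.016 and 0.078, as did Smoc2 (-0.24) and Cdca7 (-0.061). Ascl2, too low to test, measured 0.637 and 0.414 in RVC and 0.887 and 0.702 in fresh frozen. Lgr5, the receptor of crypt base stem cells, was too low to test and overlapped (0.989 and 0.562 in RVC, 0.593 and 0.812 in fresh frozen). Germinal centre B cells divide fast too, and 0 of 10 B cell and germinal centre markers reached the minimum for testing. Their sum was 3.37 and 3.87 in RVC, 1.21 in fresh frozen 1, the lowest of all, and 5.49 in fresh frozen 2, the highest, while Mef2b, a defining gene, was under 0.1 throughout. T cell markers had 2 of 10 genes tested, Thy1 and Trbc2, and Trbc2 reached the minimum through its RVC mean only. The list summed to 13.1 and 12.3 in RVC and 7.88 and 8.44 in fresh frozen. Of its untested genes, Cd3d and Cd8a were higher in RVC without overlap, and Cd3e, Cd3g, Cd4, Trac, Lck and Cd5 overlapped. The part of these cell type markers in the G2/M difference was not tested.

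Single transcripts were examined next, since the deposited values are per transcript. The most abundant transcript was the same in all 4 libraries for 17 of 24 G2/M genes and 12 of 15 G1/S and S genes, and it was protein-coding for 24 and 14. For 20 of the 24 G2/M genes this transcript was lower in both RVC libraries than in both fresh-frozen libraries, against 1 of 15 G1/S and S genes (Rrm1). Among tested genes these counts were 19 of 22 and 1 of 12, where 27.7% of all tested genes had such a transcript. Cenpe, whose summed level had to be lower to pass as it did, is among the 19 and among the genes named next. Aurka is in neither. For 9 G2/M genes, Mki67, Top2a, Ccnb1, Ccna2, Kif20a, Cenpe, Cenpf, Hmgb2 and Nusap1, the deposited confidence bounds of the RVC libraries also lay wholly below those of the fresh-frozen libraries, as in 6.49% of all tested genes. No G1/S and S gene had bounds apart in either direction, and no G2/M gene had them apart with RVC higher, where 4.04% of all tested genes did. For the 10061-nt Mki67 transcript the bounds were 4.75 to 5.45 in RVC 1, 5.78 to 6.58 in RVC 2, 7.72 to 8.72 in fresh frozen 1 and 9.32 to 10.4 in fresh frozen 2. These bounds describe the estimate within a library, not the spread between samples.

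**Figure D5:**
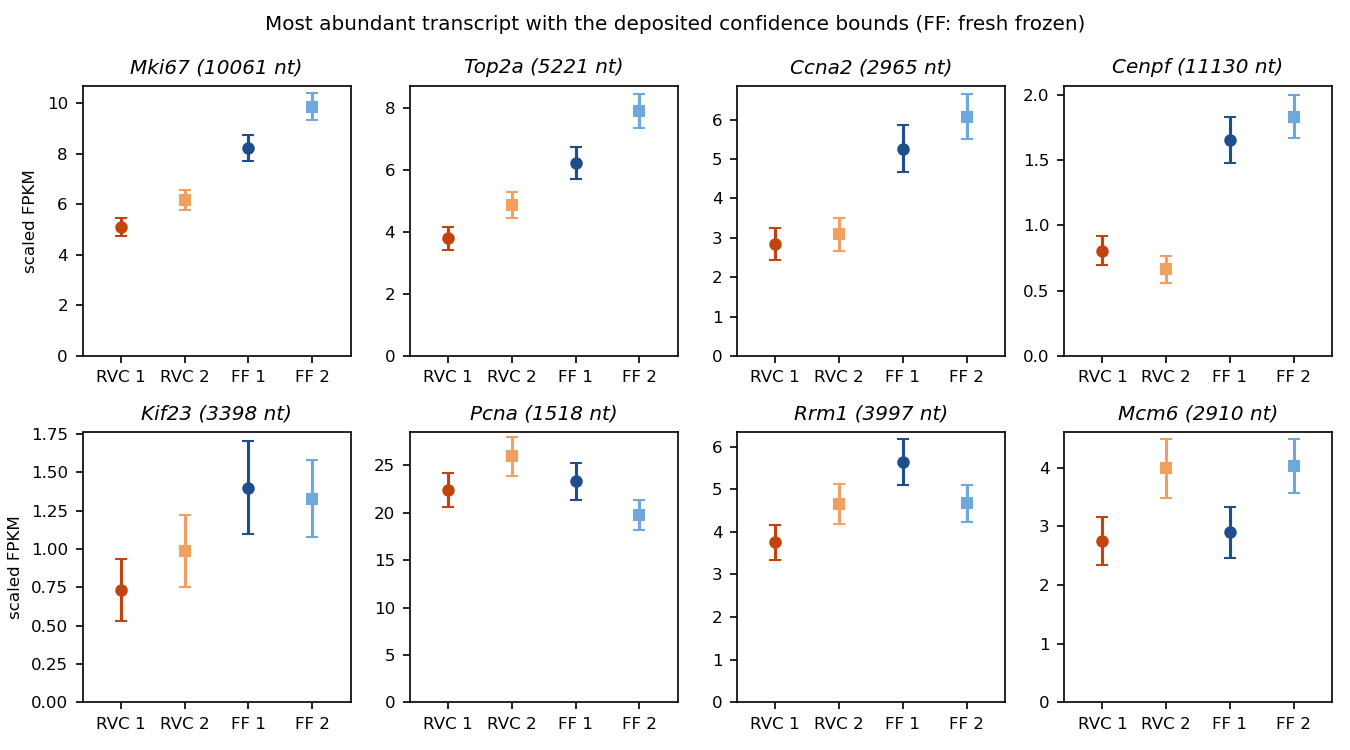
Scaled FPKM (y axis, from 0) of the most abundant transcript of 5 G2/M genes and 3 G1/S and S genes in each library, with the deposited lower and upper confidence bounds as bars. For Mki67, Top2a, Ccna2 and Cenpf the bars of the RVC libraries end below those of the fresh-frozen libraries (FF), for Kif23 they meet, and for Pcna, Rrm1 and Mcm6 they interleave.

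In some genes the sum and the main transcript differed. Bub1b, level as a whole, had a 3668-nt coding transcript at 1.01 and 1.02 scaled FPKM with RVC, against 1.46 and 1.84 in fresh frozen. The rest of its sum in RVC 1 lay mostly in a 661-nt retained-intron transcript at 1.07, against 0.0605 to 0.358 elsewhere. Aurkb went the other way: its main transcript, of 1950 nt, measured 0.902 and 1.07 in RVC and 0.618 and 0.690 in fresh frozen. A second coding transcript of Aurkb, of 1831 nt, was under 0.001 in RVC and stood at 0.558 and 0.696 in fresh frozen. Kif20a and Ccnb1, listed above with bounds apart, also divided their sums unevenly. The main Kif20a transcript, of 3146 nt, held 17.0% and 31.2% of the sum in RVC and 49.1% and 32.9% in fresh frozen. Another coding transcript of Ccnb1, of 1182 nt, was higher in RVC, at 0.758 and 0.433 against 0.0112 and under 0.001 in fresh frozen. Assignment of reads between such overlapping transcripts is a model estimate, so these splits are less certain than the sums.

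Several members share sequence with neighbours or copies. Exons of 11 G2/M and 6 G1/S and S genes overlap an exon of a gene on the opposite strand, and whether strand was used in counting was not given in the sources used here. Cdk1 overlaps Ank3, at 39.6 to 63.1 scaled FPKM, and Ccna2 overlaps Exosc9, which measured 6.68 and 7.93 in RVC and 9.92 and 9.06 in fresh frozen, so the values of both are uncertain to that extent. Mki67, Birc5, Ccnb1, Cenpe, Kif11, Kif23 and Tpx2 had no such neighbour. Among copies named as pseudogenes of a member, Pcna-ps2 measured 1.24 to 2.06 scaled FPKM, and Ccnb1-ps, Ccnb2-ps and Tyms-ps were under 1.

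Transcript length was set beside the differences, and its part in them was not tested. The longest transcripts had a median of 3462 nt in the 22 tested G2/M genes and 3406 nt in the 12 G1/S and S genes. The 11 shorter G2/M genes had a median log2 difference of -0.38 and the 11 longer ones -0.50, while the 6 shorter and 6 longer G1/S and S genes had 0.15 and -0.099. Spearman's rho of the difference with length was -0.57 over the 22 and -0.66 over the 12 genes, which share the same libraries, against -0.067 over all tested genes. With values corrected for length in each library the G2/M median was -0.46 and the G1/S and S median 0.046. Levels of the phases were alike, with a median of 2.92 scaled FPKM for G2/M and 2.36 for G1/S and S genes, both under the 6.61 of all tested genes, and the relative depth of the libraries was lowest in fresh frozen 1, at 72.6% of that of fresh frozen 2, and 79.8% and 81.8% for RVC 2 and RVC 1.

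The tested G2/M genes with a CHR match in the promoter window had a median log2 difference of -0.43 (16 genes), and those without one -0.59 (6 genes). Of the 4 G2/M genes with the smallest p-values, Cenpf, Cenpe and Kif23 carried a match and Ccna2 none in this window. Among other mitosis genes, 22 of 39 promoters (56.4%) had a CHR match, against 4 of 24 (16.7%) among other replication and repair genes.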

How the data were processed

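The authors aligned reads with TopHat2 2.1.1 to GRCm39 and estimated abundances with Cufflinks 2.2.1, per the submitters' processing notes. Libraries were depleted of ribosomal RNA and sequenced as 150-base pairs, per the labels' protocols. The deposited FPKM values and confidence bounds are per transcript, per the file headers, as is coverage, a signal used only for relative depth. Transcript lengths (nt) came from the same tables. The annotation release and strand setting were not given in the sources used here, and the number of fragments is unknown.

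FPKM was summed over the transcripts of a gene and scaled by median ratio, and log2(scaled FPKM + 1) was tested with limma 3.58.1 (R 4.3.3, mean-variance trend, two-sided, 2 libraries against 2, no covariate). Genes needed a mean of 1 scaled FPKM, a longest transcript of at least 300 nt and an OK status throughout, which gave 13771 genes. The test was checked on simulated data with independent noise and changes larger than those of the members. That check does not cover differences of the members' size. Members and lists were chosen with earlier results of these data known. Values in every library are given for the 4 most abundant members of a phase, up to 4 with the smallest p without overlap, Mki67, Pcna, Foxm1, E2f1 and untested members, and further members with values were chosen after their values were seen. From the other lists, up to 2 most abundant genes and 3 of smallest p were named, though not in every list. Further genes of these lists, outside that rule, were named with their values known. Same-numbered libraries were checked for pairing. Transcript types and promoters came from GENCODE vM39, in which 99.1% of the 141738 transcripts were found. Tables were joined with pandas 2.3.3.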

Additional observations from a re-analysis of the deposited data

How the results depend on the processing

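Under 18 alternatives, 0 members passed an adjusted p of 0.05 in limma, with 5 to 18 at an unadjusted p under 0.05 and lower in RVC, while the share of all tested genes at such a p ran from 3.80% (without RVC 1, where 12 members had it) to 17.3% (epithelial scaling, 18 members). Of these alternatives, 3 were added after seeing the data (crossed sample numbers, protein-coding transcripts, length correction). The count of members at an unadjusted p under 0.05 went from 17 to 5 at a mean of at least 5 FPKM, where only 5 G2/M and 3 G1/S and S genes were tested, and ran from 11 (without fresh frozen 2) to 17 with a library left out. The G2/M median kept its sign, at -0.61 with a pseudocount of 0.1, -0.55 with scaling on epithelial markers, and -0.53 to -0.39 with a library left out. The G1/S and S median went to -0.19 at a mean of at least 5 FPKM, and with a library left out it ran from -0.12 (without fresh frozen 1) to 0.089, so its sign changed with single libraries. The contrast of phases was 0.55 without a filter on low values, where the low members enter, and 0.22 to 0.41 with a library left out. Over all tested members and alternatives, the sign of the difference changed at least once for 5 G1/S and S genes (Ccne1, Mcm2, Mcm6, Mcm7 and Tyms) and 3 G2/M genes (Aurka, Bub1b and Plk1). Mcm7 was 0.012 with the most abundant transcript only, and Tyms -0.41 to 0.033 with a library left out, the last without RVC 1, and 0.054 with coding transcripts only. G2/M genes lower in RVC numbered 20 of 22 without fresh frozen 2, 21 without RVC 2 and 18 of 19 with the most abundant transcript.

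The number of genes called among all tested was 5. It was 13 with epithelial scaling, 14 at a mean of at least 5 FPKM, 2 with the most abundant transcript, 0 without a filter, without a trend, with coding transcripts only or without transcripts under 300 nt (at an unadjusted p under 0.05 these 4 counted 3531, 2461, 2357 and 2577), and 8 to 40 with a library left out, where a lone library is assumed to vary like the other group. A replicate block on sample number gave 112 genes, and 0 members, with 17 members at an unadjusted p under 0.05. Deviations of same-numbered libraries from their group means correlated at -0.13, and with crossed numbers as the block 12 genes were called, 0 of them members. Where the cause of a moved value is not given above, the cause was not tested. Standard errors of the members ran from 0.12 to 0.22, and the number of fragments behind a value is unknown.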
